A study of Saccharomyces cerevisiae with 6 samples.

Results

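The genes described here encode the budding yeast translation initiation factor eIF3 and the factors that act with it when the ribosome selects a start codon. The 10 genes, of 5656 that a probe set names, were chosen by name: RPG1, PRT1, NIP1, TIF34, TIF35 and HCR1 for eIF3, and SUI1, TIF11, TIF5 and FUN12 for the factors eIF1, eIF1A, eIF5 and eIF5B. The choice was made with earlier results of these data known. Each had 1 probe set among the 9335 on the array (a set of short probes made against the same transcript), and all 10 passed the filter on dim probe sets that left 6956 to be tested. Transcript levels were measured in Saccharomyces cerevisiae on Affymetrix Yeast Genome S98 arrays, in strain Y2685, which lacks CBC2, and in the isogenic wild-type strain Y255. Each strain was measured on 3 arrays. Both strains were grown in SC medium at 30 °C and harvested in log phase at an OD600 of 1.0, and the labels give no other allele and no time or treatment. The series calls the 6 experiments independent, but separate cultures are not stated for the 3 samples of a strain. The p-values therefore reflect how far these samples vary, and that variation may be technical.

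In initiation, eIF3 binds the small ribosomal subunit and brings together the initiator tRNA, the messenger RNA and the other factors. While the complex scans the messenger, eIF1 and eIF1A hold it in an open form that moves past poor start sites, eIF5 stimulates GTP hydrolysis by eIF2, and eIF1 leaves when a start codon is paired. The GTPase eIF5B then helps the large subunit to join. The protein that CBC2 encodes is a subunit of the nuclear cap-binding complex, which holds the cap of new transcripts before the cytoplasmic initiation factor eIF4E replaces it, and the comparison shows how the transcripts of the initiation machinery differ in level when that subunit is missing.

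CBC2 (YPL178W) checked the labels. It was at the floor of 8.25 on all 3 deletion arrays, against normalised intensities of 882, 840 and 763 on the wild-type arrays, which puts the deletion strain at least 100.2-fold lower (limma adjusted p = 1.18e-08). The deposited arrays differed in overall brightness by up to 1.89-fold, and the intensities given below were quantile normalised, which gives every array the same distribution. A first fluidics station washed wild-type replicates 1 and 2, a second one washed the remaining 4 arrays, and deletion replicate 2 was hybridised and scanned in another batch than the rest. The ratio of 3′ to 5′ signal reflects RNA integrity. For ACT1 it ranged between 1.02 and 1.42 in the deletion strain and between 1.15 and 1.47 in the wild type. For the gene of the TATA-binding protein it ranged between 3.67 and 5.13 in the deletion strain and between 2.48 and 3.74 in the wild type. Its part in the results below was not tested.

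The genes of the 5 core eIF3 subunits and TIF11 were higher in the deletion strain, while HCR1 and SUI1 had log2 fold changes near 0 and overlapping values. Of the 10 genes, 6 rose, none fell and 4 did not pass the test, with log2 fold changes (deletion minus wild type) from 0.03 to 1.14 and a median of 0.70. Among all 6956 tested probe sets the median was -0.01, 15.2% were called higher and 16.2% lower, 31.4% in all. Calls required a limma p below 0.05 after Benjamini-Hochberg adjustment across the tested probe sets, and every adjusted p below is of this kind. For 7 of the 10 genes every deletion array was above every wild-type array after normalisation. Over all tested probe sets, 22.8% had every deletion array above every wild-type array and 24.7% had every deletion array below. Of those 7 genes, RPG1, TIF35 and TIF11 overlapped between the strains in the deposited intensities, and NIP1, PRT1, TIF34 and FUN12 did not. The share of all probe sets was not taken there.

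**Figure D1:**
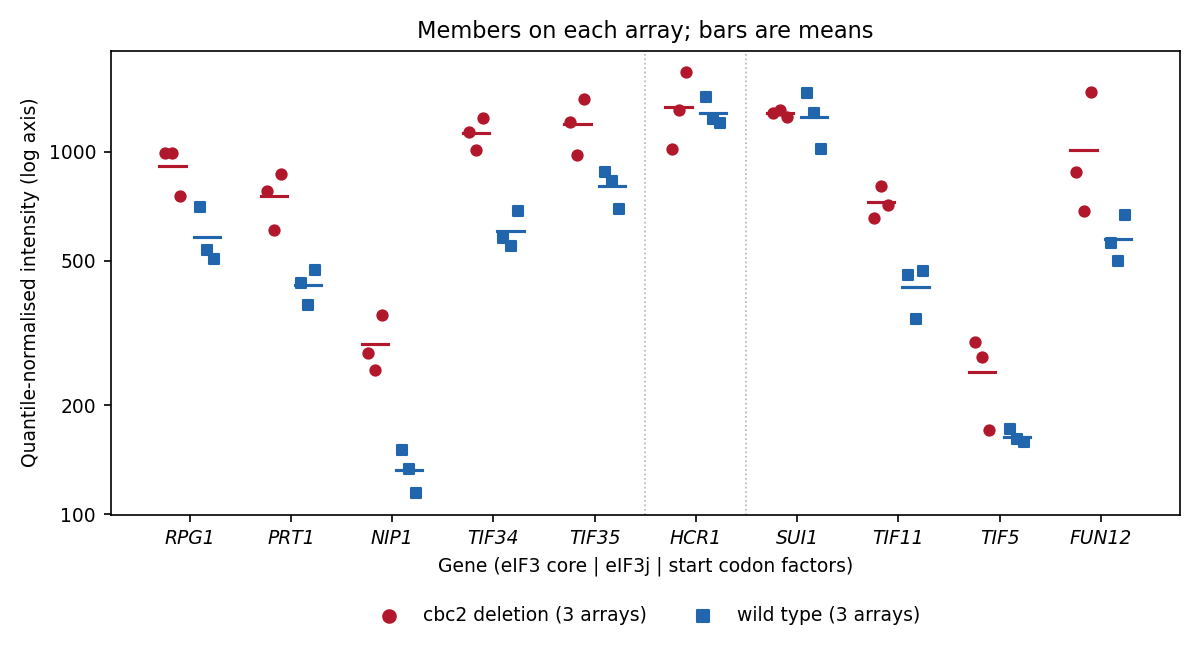
Quantile-normalised intensity (vertical log axis) of the 10 genes on each array, with red circles for the 3 cbc2 deletion arrays, blue squares for the 3 wild-type arrays and bars for their means. Heights of different genes come from different probes and are not comparable, and the red and blue points are apart for the 5 core eIF3 genes, TIF11 and FUN12 and overlap for HCR1, SUI1 and TIF5.

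NIP1 (YMR309C) encodes eIF3c, one of the large scaffold subunits, which contacts eIF1 and eIF5. Its normalised intensity was 279, 251 and 354 on the deletion arrays, against 151, 133 and 114 on the wild-type arrays. The lowest deletion value was well above the highest wild-type value. The means were 294 ± 53.5 in the deletion strain and 133 ± 18.4 in the wild type (SD, n = 3 each), a 2.21-fold difference (log2 fold change 1.14, SE 0.19, adjusted p = 0.00207). This change was above that of 96.3% of the tested probe sets.

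TIF34 (YMR146C) encodes eIF3i, a subunit with a beta-propeller fold. It read 1136, 1011 and 1241 on the deletion arrays, against 577, 551 and 688 on the wild-type arrays, and the strains were clearly apart. The fold was 1.87 (log2 fold change 0.90, SE 0.16, adjusted p = 0.00287). PRT1 (YOR361C) encodes eIF3b, the scaffold to which eIF3i and eIF3g attach. It read 781, 610 and 870 on the deletion arrays, against 436, 379 and 471 on the wild-type arrays. Deletion replicate 2 was the lowest of its strain and still above every wild-type array. The log2 fold change was 0.80 (SE 0.18, adjusted p = 0.00878).

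RPG1 (YBR079C) encodes eIF3a, the largest scaffold, whose ends reach toward both sides of the messenger channel of the small subunit. It read 991, 992 and 757 on the deletion arrays, against 704, 537 and 507 on the wild-type arrays. Deletion replicate 3 and wild-type replicate 1 lay close together, so the strains were apart by a small margin (log2 fold change 0.65, SE 0.19, adjusted p = 0.0241). TIF35 (YDR429C) encodes eIF3g, an RNA-binding subunit that promotes scanning. It read 1206, 984 and 1403 on the deletion arrays, against 883, 829 and 697 on the wild-type arrays, and had the smallest change of the core subunits (log2 fold change 0.57, SE 0.18, adjusted p = 0.0338). These were also the 2 core genes whose calls did not hold in every fit that left out an array. RPG1 was not called without deletion replicate 1 or 2 or wild-type replicate 2 or 3 (log2 fold changes 0.59, 0.59, 0.60 and 0.56, adjusted p from 0.0685 to 0.0853). TIF35 was not called without deletion replicate 1 or 3 or wild-type replicate 2 or 3 (log2 fold changes 0.56, 0.45, 0.60 and 0.47, adjusted p from 0.0621 to 0.113). NIP1, TIF34 and PRT1 were called in all 6 fits that left out an array.

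HCR1 (YLR192C) encodes eIF3j, a loosely bound subunit that sits at the decoding site and also takes part in termination and recycling. It read 1021, 1308 and 1664 on the deletion arrays, against 1414, 1229 and 1199 on the wild-type arrays. The deletion arrays spanned the whole wild-type range and beyond it on both sides. The log2 fold change was 0.03, with a 95% confidence interval from -0.39 to 0.45 (adjusted p = 0.922), and it was -0.14 without deletion replicate 3. The upper end of the interval lies below the estimate of each of the 5 core subunits. It lies above the lower ends of the intervals of TIF35, RPG1 and PRT1 (0.18, 0.24 and 0.40), and below those of TIF34 and NIP1 (0.54 and 0.72). The difference between HCR1 and the core genes was not itself tested.

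Among the start codon factors, TIF11 was called, and TIF5 and FUN12 had values on both sides of the threshold across settings. TIF11 (YMR260C), which encodes eIF1A, read 656, 808 and 713 on the deletion arrays, against 459, 346 and 469 on the wild-type arrays. The strains did not overlap, and the log2 fold change was 0.78 (SE 0.18, adjusted p = 0.00901), called in all 6 fits without 1 array. SUI1 (YNL244C), which encodes eIF1, read 1283, 1309 and 1250 on the deletion arrays, against 1455, 1277 and 1019 on the wild-type arrays. The deletion arrays were close together in the middle of a wider wild-type range (SD of the log2 values 0.03 in the deletion strain and 0.26 in the wild type). Its log2 fold change was 0.05, with a 95% confidence interval from -0.31 to 0.41 (adjusted p = 0.848).

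TIF5 (YPR041W) encodes eIF5, the GTPase-activating protein of eIF2. It read 299, 272 and 171 on the deletion arrays, against 171, 161 and 158 on the wild-type arrays. Deletion replicates 1 and 2 were above the wild type, and deletion replicate 3 was inside its range. The log2 fold change was 0.56 (SE 0.22, adjusted p = 0.0763), and TIF5 was called in 1 of the 6 fits that left out an array. Without deletion replicate 3 the change was 0.80 (adjusted p = 0.00835), and without deletion replicate 1 it was 0.40 (adjusted p = 0.238). FUN12 (YAL035W) encodes eIF5B, a relative of bacterial initiation factor IF2. It read 878, 688 and 1463 on the deletion arrays, against 560, 500 and 669 on the wild-type arrays. Every deletion array was above every wild-type array, deletion replicate 2 by little and deletion replicate 3 by much, which gave the widest spread of the 10 genes (SD of the log2 values 0.56 in the deletion strain and 0.21 in the wild type). The log2 fold change of 0.75 (SE 0.26) missed the threshold at an adjusted p of 0.0501, and FUN12 too was called in 1 of the 6 fits. Without deletion replicate 2 the change was 0.99 (adjusted p = 0.0197), and without deletion replicate 3 it was 0.44 (adjusted p = 0.116).

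**Figure D2:**
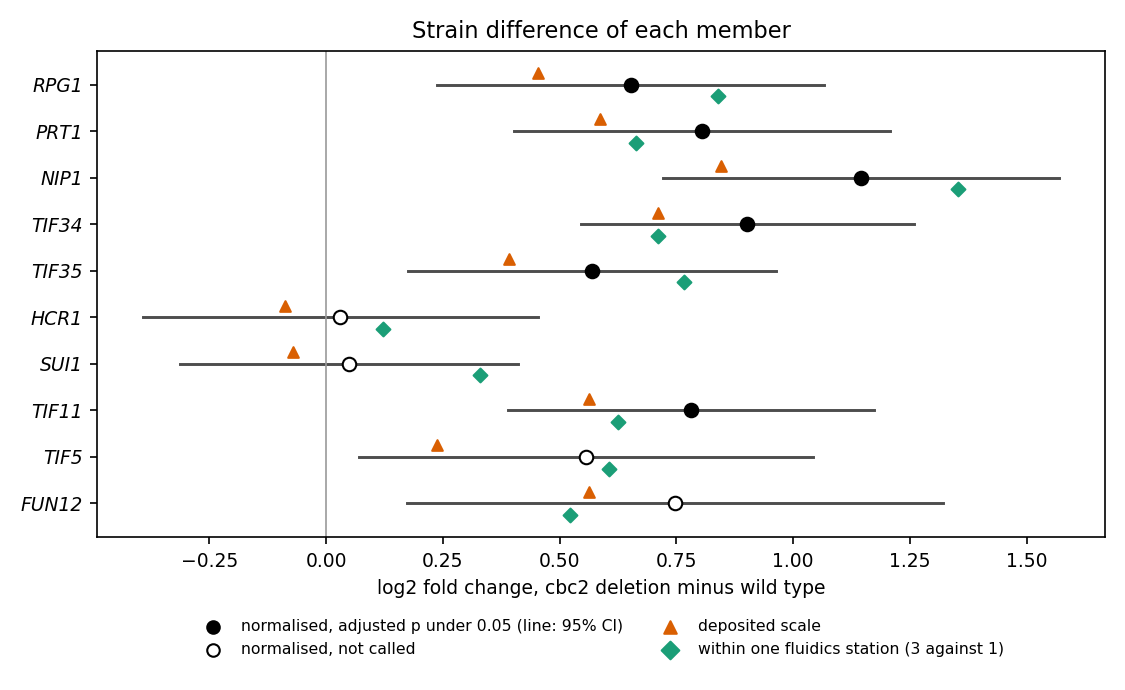
Log2 fold change of each gene (horizontal axis, cbc2 deletion minus wild type), with circles for the normalised values (filled where called, lines for the 95% confidence interval), triangles for the deposited scale and diamonds for the values within the fluidics station that holds both strains. The circles of the 5 core eIF3 genes and TIF11 lie between 0.57 and 1.14 and those of HCR1 and SUI1 near 0, with their triangles just below 0.

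**Figure D3:**
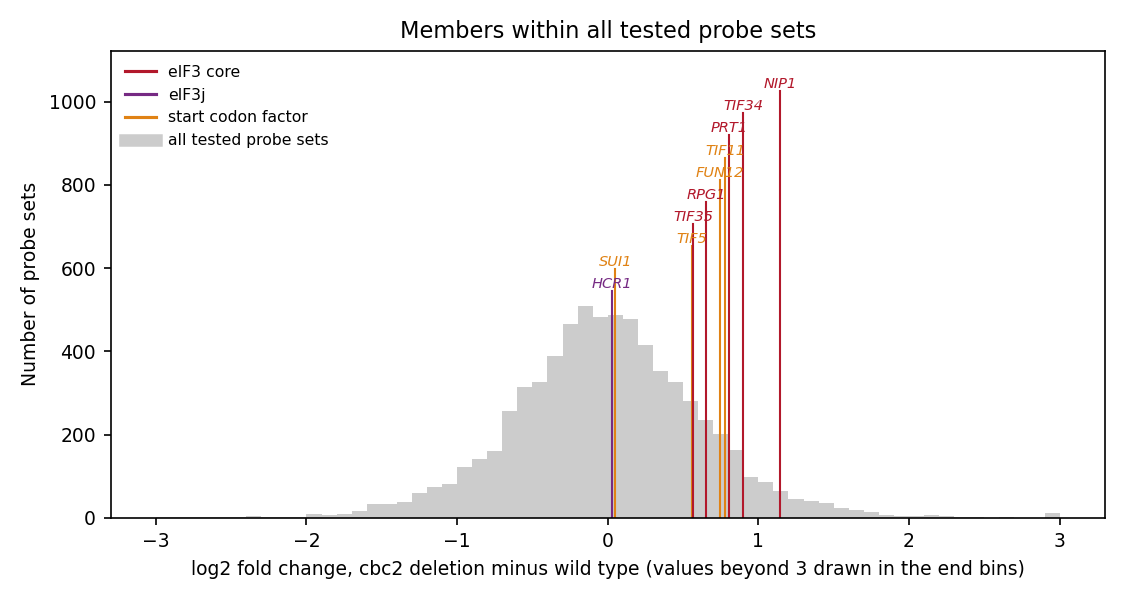
Histogram of the log2 fold changes (horizontal axis, cbc2 deletion minus wild type) of all 6956 tested probe sets, in number of probe sets (vertical axis), with a labelled line for each of the 10 genes. HCR1 and SUI1 lie in the middle of the distribution, and the other 8 genes lie on its upper side, TIF5 lowest at the 82.9 percentile and NIP1 highest at the 96.3 percentile.

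How the genes stood to each other within an array does not depend on a linear scaling between arrays. The mean log2 deposited intensity of the 5 core genes minus that of HCR1 was -0.40, -0.99 and -1.06 on the deletion arrays, against -1.52, -1.47 and -1.50 on the wild-type arrays. The ratio was higher on every deletion array, on average by 0.68 on the log2 scale, and only this difference can be read, since the level of such a ratio depends on the probes. The same ratio over SUI1 was -0.75, -0.99 and -0.61 on the deletion arrays, against -1.57, -1.52 and -1.27 on the wild-type arrays, again higher on each deletion array and by 0.67 on average. Over TIF11, TIF5 and FUN12 the ratios of the strains overlapped, with mean differences of 0.03, 0.36 and 0.03. These ratios were chosen after the values were seen and were not tested.

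**Figure D4:**
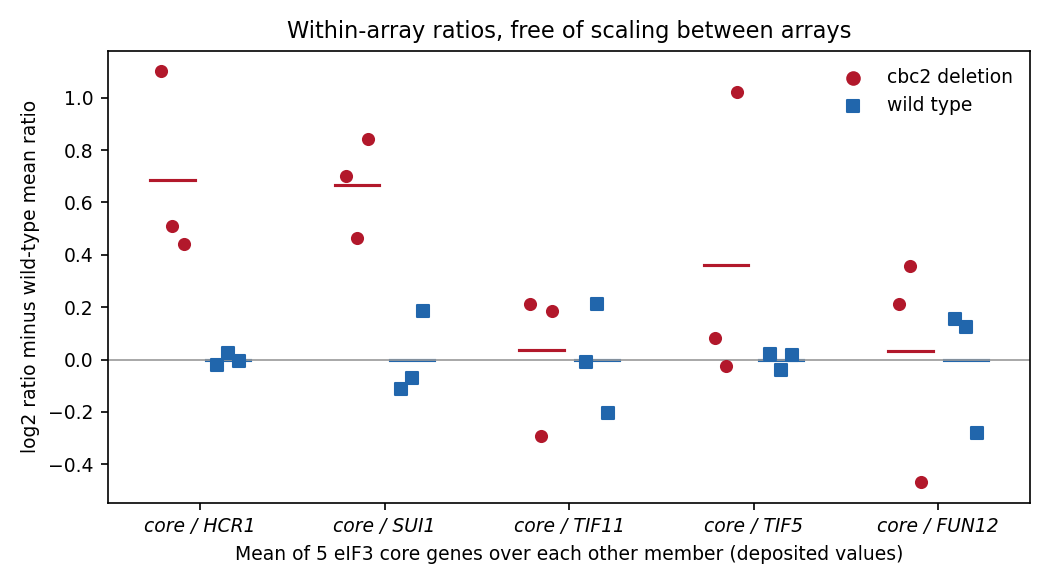
Log2 ratio of the mean of the 5 core eIF3 genes over each other gene (horizontal axis) on the deposited scale, less the mean wild-type ratio (vertical axis), with red circles for the cbc2 deletion arrays, blue squares for the wild-type arrays and bars for means. The circles are above the squares for HCR1 and SUI1 (mean differences 0.68 and 0.67) and overlap with them for TIF11, TIF5 and FUN12, with 1 circle far above the squares for TIF5.

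The calls of these changes depended on the scale and on the fluidics station. Without quantile normalisation the median log2 fold change over all tested probe sets was -0.27, 2.37% of them were called higher and none of the 10 genes was called by limma (1 at an unadjusted p under 0.05). There the log2 fold changes of the 5 core genes were 0.45 for RPG1, 0.59 for PRT1, 0.85 for NIP1, 0.71 for TIF34 and 0.39 for TIF35, and those of HCR1, SUI1 and TIF5 were -0.087, -0.071 and 0.24. All 10 were above the median of all probe sets on that scale. Less that median, the changes were 0.72 for RPG1, 0.85 for PRT1, 1.11 for NIP1, 0.98 for TIF34 and 0.66 for TIF35. With normalised values less their own median they were 0.66, 0.82, 1.16, 0.91 and 0.58. HCR1 and SUI1 were at 0.18 and 0.19 in this way, against 0.04 and 0.06. The SE was larger on the deposited scale, for RPG1 0.39 against 0.19. Within the second fluidics station, which holds 3 deletion arrays and wild-type replicate 3, the changes were 0.84 for RPG1, 0.66 for PRT1, 1.35 for NIP1, 0.71 for TIF34 and 0.77 for TIF35. For the others they were 0.12 for HCR1, 0.33 for SUI1, 0.62 for TIF11, 0.61 for TIF5 and 0.52 for FUN12, against a median of -0.02 over all tested probe sets. All 3 deletion arrays were above that wild-type array for 9 of the 10 genes, HCR1 being the other. The share of all probe sets with this order was not taken, so the count cannot be read as a result about these genes. The change of SUI1 was larger there than the 0.05 over all arrays. Wild-type replicate 3 had the lowest of its wild-type values (1019, against 1455 and 1277). SUI1 was not called with the station as a block (adjusted p = 0.306). With the station as a block, NIP1 alone was called (adjusted p = 0.0205), when 4.8% of all probe sets were called higher.

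The rest of the initiation machinery was read from a list of 26 other initiation factor genes. Of these, 24 had a probe set of their own and were tested, and TIF1 and TIF2, which encode the same protein eIF4A, share a probe set that was not used. The list had 11 genes that rose, 1 that fell and 12 that did not pass the test, with a median log2 fold change of 0.50. Over all tested probe sets 15.2% rose and 16.2% fell, with a median of -0.01. The number called in the list was 7 without wild-type replicate 2, 1 on the deposited scale and 2 with the station as a block, where 22.9%, 10.5% and 9.7% of all probe sets were called. Among 9 genes of eIF4 and poly(A) binding, 6 rose (against 15.2% of all probe sets), with log2 fold changes of the 9 from -0.11 to 1.10. TIF4631, which encodes a form of eIF4G, the scaffold that binds the cap-binding protein eIF4E, read 379, 281 and 313 on the deletion arrays, against 140, 188 and 171 on the wild-type arrays (log2 fold change 0.96, SE 0.19, adjusted p = 0.00428). TIF4631 was not called on the deposited scale (adjusted p = 0.321) or with the station as a block (adjusted p = 0.07). Of the 3 genes of eIF2, which carries the initiator tRNA, 1 rose, against 15.2% of all probe sets. It was SUI3 (0.61, adjusted p = 0.023), named after its value was seen. Of the 5 genes of eIF2B, the exchange factor that recharges eIF2 with GTP, none was called by limma, with changes from -0.24 to 0.57. At an unadjusted p under 0.05 there were 2 of these 5, and 3014 of all 6956 tested probe sets.

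TMA20 and TMA22 encode a pair of proteins that form a complex on the small subunit and help to free it of tRNA after termination. TMA22 read 445, 402 and 338 on the deletion arrays, against 196, 132 and 186 on the wild-type arrays (log2 fold change 1.22, SE 0.20, adjusted p = 0.00193). TMA20 read 808, 659 and 820 on the deletion arrays, against 426, 449 and 461 on the wild-type arrays (log2 fold change 0.77, SE 0.16, adjusted p = 0.00559). Both were apart between the strains after normalisation and overlapped in the deposited intensities. Neither was called on the deposited scale (adjusted p = 0.136 for TMA22 and 0.405 for TMA20). With the station as a block they were not called either (adjusted p = 0.0524 and 0.0823). The largest change in the list was that of ANB1, a form of eIF5A made under low oxygen, which read 82.1, 81.1 and 112 on the deletion arrays, against 11.9, 21.0 and 25.8 on the wild-type arrays (log2 fold change 2.29, SE 0.31, adjusted p = 0.000769). The wild-type values of ANB1 lay near the floor of 8.25, and its log2 fold change was 1.61 with a pseudocount of 16 in place of the floor. ANB1 also has a near-identical copy, HYP2, so its value is uncertain, and HYP2 was not called (-0.44, adjusted p = 0.235). The gene that fell was TIF6 (-0.50, adjusted p = 0.0331), named after its value was seen, which encodes a factor that keeps the large subunit from joining the small one too early.

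**Figure D5:**
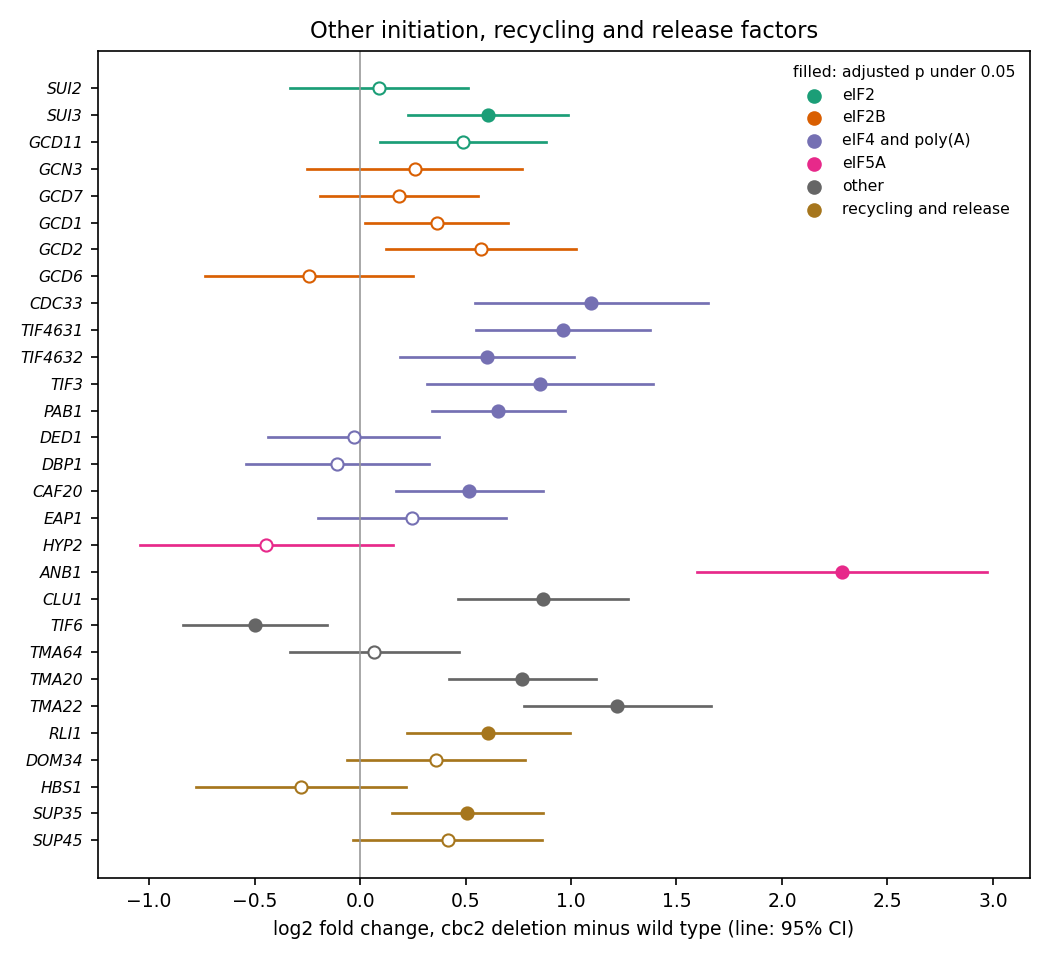
Log2 fold change (horizontal axis, cbc2 deletion minus wild type, lines for the 95% confidence interval) of 24 other initiation factor genes and 5 recycling and release factor genes, coloured by group and filled where called. Genes of eIF4 and poly(A) binding lie mostly on the right, the 5 eIF2B genes are all open, and ANB1 is far to the right at 2.29.

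In termination and recycling, where HCR1 and eIF3 act with the ATPase Rli1 and the release factors, 2 of 5 genes rose, where 15.2% of all probe sets rose. The log2 fold changes of the 5 ran from -0.28 to 0.61. RLI1 read 888, 704 and 952 on the deletion arrays, against 537, 496 and 630 on the wild-type arrays (log2 fold change 0.61, SE 0.17, adjusted p = 0.0246). SUP35, the release factor eRF3, had a log2 fold change of 0.51 (adjusted p = 0.0364), and SUP45, eRF1, had 0.41 (adjusted p = 0.14) and 0.20 without wild-type replicate 3. DOM34, which rescues stalled ribosomes, had 0.36 (adjusted p = 0.173), and its partner HBS1, named after its value was seen, had -0.28 (adjusted p = 0.37). With the station as a block SUP45 was the 1 gene called (0.84, adjusted p = 0.0472), and RLI1 (0.42, adjusted p = 0.286) and SUP35 (0.56, adjusted p = 0.157) were not. In that fit 9.7% of all probe sets were called. The count among these 5 genes was 0 in 4 of the 6 fits that left out an array and 1 without wild-type replicate 3. Over all 6956 tested probe sets, those 6 fits gave from 1476 to 1957 calls. The mitochondrial initiation genes, among them IFM1, the mitochondrial relative of FUN12, gave no call by limma (0 of 2 tested at an unadjusted p under 0.05). IFM1 had a log2 fold change of 0.19 (adjusted p = 0.487) and AIM23, the mitochondrial factor IF3, 0.25 (adjusted p = 0.388), and FMT1 was too dim to be tested.

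The genes next to the 10 on their chromosomes were called at a share near that of all probe sets. All 20 neighbours were tested and 5 (25%) were called, 2 higher and 3 lower, against 31.4% of all tested probe sets. PRE10, a proteasome subunit gene beside PRT1, had a log2 fold change of 0.88, and PSE1, an importin gene beside NIP1, 0.50. PDE2, on the other side of PRT1, had -0.98, NDE1, beside TIF34, -0.83, and CWC25, a splicing factor gene beside SUI1, -0.76. These 5 were named after their values were seen.

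The 5 core genes were also set against all other genes by the shape of their values over the 6 arrays. Each gene's log2 values were centred on their own mean, and the root mean square difference from the mean profile of the core genes was taken, over 5068 genes. PRT1, TIF34, TIF35, NIP1 and RPG1, which form that profile, differed from it by 0.12, 0.13, 0.16, 0.20 and 0.23 on the log2 scale, and TIF11 by 0.20. By nearness these core genes ranked 58, 98, 172, 357 and 537 of the 5068 genes, and TIF11 ranked 370. Many genes outside eIF3 were thus nearer to the profile, and it is not particular to eIF3. FUN12 differed by 0.28, TIF5 by 0.34, SUI1 by 0.41 and HCR1 by 0.44, against a median of 0.48 over all genes. The genes nearest to the profile were UFE1, a membrane fusion gene of the endoplasmic reticulum (0.034), RNR4, of ribonucleotide reductase (0.036), YDL124W (0.060), PMT1, a protein mannosyltransferase gene (0.062), and RPA190, the largest subunit of RNA polymerase I (0.063). Their log2 fold changes ran from 0.77 to 0.88, and being chosen by profile they are a description.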

How the data were processed

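The authors deposited intensity values on a linear scale for each probe set of each array. The sources used here do not name the summarisation software or a scaling step. The run information files, per the file headers, hold other values, settings of washing and scanning, and were read only for station and batch. The intensities were quantile normalised, raised to the 10th percentile (8.25) where lower, and log2 transformed. Controls (60 probe sets) were dropped, and so was the dimmest 25% of the rest, ranked on the mean log2 value. Deletion minus wild type was fitted on the 6 arrays by lmFit and eBayes with an intensity trend (limma 3.58.1, R 4.3.3). The test was checked on simulated data with independent noise and no station or batch differences, so that check does not cover these. The number of arrays limits the precision (median SE 0.20 on the log2 scale).

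Probe sets were named through the platform annotation, which gave 6504 of them 1 symbol, 328 several and 2503 none; all 6504 matched assembly R64, used for names and gene order. Where a gene had several probe sets, those free of cross-hybridisation suffixes were preferred and the brightest was read. The members and lists were chosen with earlier results of these data known, so no p-value was computed over a list. Named are the members, CBC2, the 4 genes of smallest p in each list and the 5 nearest profiles; exceptions are marked. No 2 arrays held identical values. Same-numbered arrays of the strains did not deviate together (correlations -0.23, -0.09 and 0.08), so the numbers were not taken as pairs. Promoter and protein sequences were not analysed here. Alternatives covered scaling, floor, pseudocount (16), filter, variance model, fold threshold, blocks and leaving out each array.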

Additional observations from a re-analysis of the deposited data

How the results depend on the processing

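The 5 core genes, TIF11, TIF5 and FUN12 were higher in the deletion strain in all 17 other fits, while their calls varied. FUN12, which just missed the threshold in the main fit, was called in 6 of them. These included median scaling (adjusted p = 0.0281), the floor at the 5th percentile (adjusted p = 0.0498) and the pseudocount (adjusted p = 0.049). The count of called members was 4 to 7 (all tested probe sets: 1476 to 2230) except on the deposited scale (0) and with the fluidics station as a block (1), where the members called higher were also 0 and 1. Over all tested probe sets these settings gave 728 and 675 calls, and the other initiation factors gave 1 and 2, the recycling and release factors 0 and 1, and the genes adjacent to the members 1 and 2. With a replicate block the members called stayed at 6 in number, TIF35 losing its call (adjusted p = 0.0621) and FUN12 gaining one (adjusted p = 0.023). The recycling factors called were 1 there, as without the filter on dim probe sets. Of all tested probe sets, 1911 of 6956 were called with the replicate block and 1711 of 9275 without the filter. That filter's absence also ended the calls of RPG1 and TIF35 (adjusted p = 0.0638 and 0.0734). With the scan batch as a block, RPG1 lost its call (adjusted p = 0.075) and FUN12 gained one (adjusted p = 0.02). In that fit 3 of the 20 adjacent genes were called, against 1861 of all 6956 tested probe sets. Deletion replicate 2 was alone in its batch, so the log2 fold changes of this fit are those of the fit without that array. The station block likewise gives the changes within the second station. These are not separate checks. Without single arrays, the counts ran from 1476 to 1957 for all probe sets, 4 to 6 for members, 7 to 10 for other initiation factors, 0 to 2 for recycling factors and 3 to 4 for adjacent genes. The log2 fold change of HCR1 was -0.087 on the deposited scale, 0.24 with median scaling, 0.12 with the station as a block, and -0.14 to 0.21 without single arrays. That of SUI1 was -0.071 on the deposited scale, 0.26 with median scaling, 0.33 with the station as a block, and -0.091 to 0.17 without single arrays. AIM23 and IFM1 were at -0.072 and -0.11 on the deposited scale and at -0.0015 and -0.065 with the station as a block. None of these 4 genes was called in any of the fits. The cause of these differences was not tested. The planned motif and start codon context search was not run, since sequences were not used here.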
